A study of Homo sapiens with 10 samples.

Results

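The genes of 10 RNA-binding proteins of the nervous system, MSI2, MSI1, RBFOX1, RBFOX3, CELF2, CELF4, ELAVL2, ELAVL4, NOVA1 and RBMS3, were examined for peaks of H4R3me2s, the symmetric dimethylation of arginine 3 on histone H4. They are 10 of the 19974 protein-coding genes annotated on chromosomes 1 to 22 and X. MSI2 was selected on its peak count in the pooled comparison of BDNF+Dox with BDNF, and the other 9 were chosen as related genes with results of these data known. Every peak list described here was therefore used to choose the genes, and all counts are a description with no test. A peak was assigned to a gene where it overlapped the gene's RefSeq span (GRCh38) or the 2 kb on either side. These windows cover 5.96 Mb, or 0.452% of the length of all protein-coding gene windows.

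The cells were SH-SY5Y, a human neuroblastoma line that can be turned into neuron-like cells in culture. Naive cells received no differentiation agent. BDNF cells received 10 µM retinoic acid (RA) for 6 days and then 50 ng/ml brain-derived neurotrophic factor (BDNF) for 4 days. BDNF+Dox cells received the same RA and BDNF plus doxycycline (1 µg/ml, 3 days) to turn on α-synuclein from a Tet-on system. All cells were grown with zeocin, but the labels do not say whether Naive and BDNF cells carry the same Tet-on construct. A difference in construct between BDNF+Dox and the other groups could therefore not be checked. No group with doxycycline but lacking the α-synuclein construct is among the samples used, so the drug and the protein cannot be told apart. The Tet-on cells come from 1 tumour-derived line, and the labels do not say whether the 3 libraries of a group came from separate cultures. Peak lists hold no expression values, so neither the differentiation nor the α-synuclein level was checked.

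Each group had 3 ChIP-seq libraries (9 in all) with 17164402 to 18928589 reads kept, and 1 Input library with 17074000 reads served as control for all 9. The library lists held 4536 to 12207 peaks, of which Naive 1 and BDNF+Dox 1 had the most. A further 4 lists compare groups after their libraries had been merged by the authors, namely BDNF+Dox over BDNF and BDNF+Dox over Naive, each in a narrow and a broad version. These 4 pooled lists have no replicates, and both comparisons share the BDNF+Dox reads, so a place that recurs in both is not found independently. The calls look only for more signal in BDNF+Dox, so no loss can appear in them. Per the file headers, peaks were kept at a MACS2 p of 0.01, a lenient threshold.

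RNA-binding proteins of these families recognise short motifs in pre-mRNA and mRNA, and in neurons they set alternative splicing, message stability and translation. Musashi proteins (MSI1, MSI2) are best known as translational regulators of stem and progenitor cells, whereas RBFOX, NOVA, CELF and the neuronal ELAV proteins are known for splicing and stability programmes of mature neurons. H4R3me2s is placed by arginine methyltransferases such as PRMT5 and is generally linked to repression. Many genes of this kind are very long, so a raw peak count mostly follows length and was read per Mb. RBFOX1 spans 2470 kb and makes up 41.6% of the length examined, CELF2 spans 874 kb, RBMS3 729 kb, RBFOX3 576 kb, MSI2 446 kb and CELF4 323 kb. ELAVL2, ELAVL4 and NOVA1 span 155 to 160 kb, and MSI1 only 29.5 kb.

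No peak of any of the 13 lists lay on an annotated start site of these genes. The RefSeq promoter table (GRCh38.p14, 250 bases before to 50 after each start) holds 47 windows for 9 of the 10 genes, and 0 of 47 overlapped a peak, which allows a share of up to 6.38% for counting error alone. Over all protein-coding genes 58 of 22156 windows did, or 0.262%, and 47 windows are too few to tell 0 from such a share. Some of the 47 overlap one another as neighbouring starts of 1 gene, so they are not independent and the limit of 6.38% is too low. The 250 bases upstream of 3 starts are shown because they belong to the genes with the most pooled peaks per gene (MSI2 and RBMS3) and to the start nearest to any peak (CELF2). All 3 are on the plus strand and written 5′ to 3′, at chr17:57255601-57255850 for MSI2, chr3:29280821-29281070 for RBMS3 and chr10:11017622-11017871 for CELF2. Capitals mark the GC box, GGGCGG or its reverse complement CCGCCC.
MSI2: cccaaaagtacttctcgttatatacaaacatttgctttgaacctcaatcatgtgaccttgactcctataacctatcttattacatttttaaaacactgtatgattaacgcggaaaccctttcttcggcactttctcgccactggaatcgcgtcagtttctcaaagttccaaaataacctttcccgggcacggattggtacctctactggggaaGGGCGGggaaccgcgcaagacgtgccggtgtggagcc
RBMS3: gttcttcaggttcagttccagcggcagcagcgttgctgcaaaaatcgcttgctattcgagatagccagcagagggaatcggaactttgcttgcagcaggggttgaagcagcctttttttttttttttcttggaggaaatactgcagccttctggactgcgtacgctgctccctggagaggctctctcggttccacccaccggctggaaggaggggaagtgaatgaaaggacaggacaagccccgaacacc
CELF2: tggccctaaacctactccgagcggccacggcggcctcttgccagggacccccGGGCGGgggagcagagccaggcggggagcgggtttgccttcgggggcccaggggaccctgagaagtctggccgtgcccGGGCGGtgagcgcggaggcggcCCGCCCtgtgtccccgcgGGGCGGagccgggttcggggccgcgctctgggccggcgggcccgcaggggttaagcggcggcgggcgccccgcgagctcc
The MSI2 stretch is 46.4% G+C with 14 CpG and 1 GC box, the RBMS3 stretch 53.2% with 10 CpG and none, and the CELF2 stretch 79.2% with 32 CpG and 4 GC boxes. MSI2 has another start, not shown, whose stretch at chr17:57256769-57257018 is 72.8% G+C with 31 CpG and no GC box. With overlapping stretches each counted, a GC box was present in 15 of the 47 upstream stretches (31.9%), against 53.7% of the 22156 of all protein-coding genes. The median G+C was 56.4% against 62.0%. The GC boxes are letter matches and not binding sites. The nearest peak to the CELF2 window was 1.62 kb away, in the authors' deposited table of broad peaks over Naive. The nearest peak was 3.66 kb from the MSI2 window shown, 2.50 kb from that of its other start and 41.1 kb from the RBMS3 window. Most peaks were far deeper in the genes, with a median distance of 146 kb from the nearest start of the promoter table over all library peaks of these genes. The outermost start of RBFOX1, which holds 33 of the 80 library peaks, is not in that table. Some true distances are therefore shorter. Exons and introns could not be told apart with the annotation used.

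Summed over the 10 genes, the groups did not separate. The Naive libraries 1, 2 and 3 held 10, 8 and 9 peaks, the BDNF libraries 11, 8 and 8, and the BDNF+Dox libraries 14, 7 and 5. The BDNF+Dox libraries thus included both the highest and the lowest count. Naive libraries averaged 9.0 ± 1.0 peaks, BDNF libraries 9.0 ± 1.73 and BDNF+Dox libraries 8.67 ± 4.73 (SD, n = 3 each). The highest count came from BDNF+Dox 1, a library with one of the longest peak lists. Without it the mean of BDNF+Dox lay 3.0 peaks below that of BDNF, and with it 0.333 below.

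Per Mb, the genes carried fewer peaks than other genes in most libraries. Their density in peaks per Mb was 1.51 ± 0.168 for Naive, 1.51 ± 0.29 for BDNF and 1.45 ± 0.793 for BDNF+Dox libraries (SD, n = 3 each). The 3351 protein-coding genes with a span of 100 kb or more, 9 of the 10 among them, had 2.88 ± 0.995, 2.01 ± 0.442 and 2.97 ± 0.807 peaks per Mb in the same groups. The density of the RNA-binding protein genes was below that of these long genes in each of the 9 libraries, and the difference was narrowest in BDNF 1 (1.84 against 2.02 per Mb). As a share of each library's own list, the genes held 8.24 to 13.7 of every 10000 peaks in Naive libraries, 11.7 to 18 for BDNF and 7.93 to 13 for BDNF+Dox. The BDNF mean of 15.8 ± 3.59 (SD, n = 3) was above those of Naive (11.1 ± 2.75) and BDNF+Dox (10.3 ± 2.52), but the ranges overlapped. The overlap rested on BDNF 3 (11.7), as the other BDNF libraries, at 17.8 and 18, lay above every Naive and every BDNF+Dox library. Without BDNF 3 the share in BDNF+Dox minus that in BDNF was -7.55 per 10000 peaks, against -5.48 with it.

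**Figure D1:**
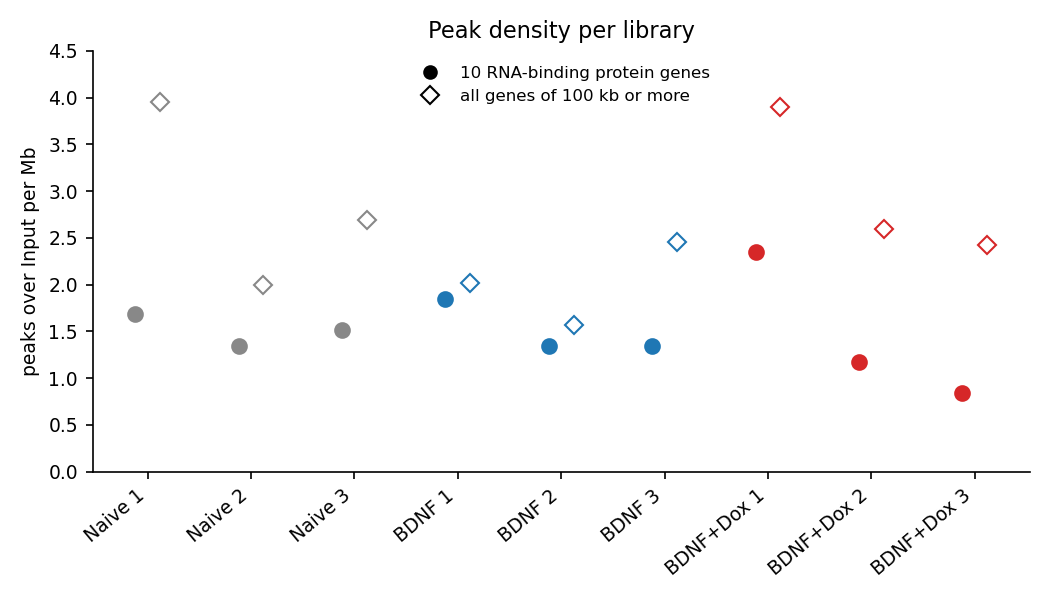
Peaks over Input per Mb in each of the 9 libraries, with filled circles for the 10 RNA-binding protein genes together and open diamonds for all genes with a span of 100 kb or more, coloured by group. The circles lie between 0.839 and 2.35 per Mb, each below the diamond of its own library, and the BDNF+Dox circles span the widest range.

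Gene by gene, 9 of the 10 had a peak in at least 1 library, and 90.0% of all long genes did. None of the 10 had counts in 1 group that lay wholly above those of another. Among the 3017 long genes with a library peak, every BDNF+Dox library exceeded every BDNF library in 3.18% and the reverse held in 0.398%. BDNF exceeded Naive in 0.398% and Naive exceeded BDNF in 2.45%. BDNF+Dox exceeded Naive in 1.79% and Naive exceeded BDNF+Dox in 1.13%. Beside such shares a count of 0 of 10 does not set these genes apart.

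**Figure D2:**
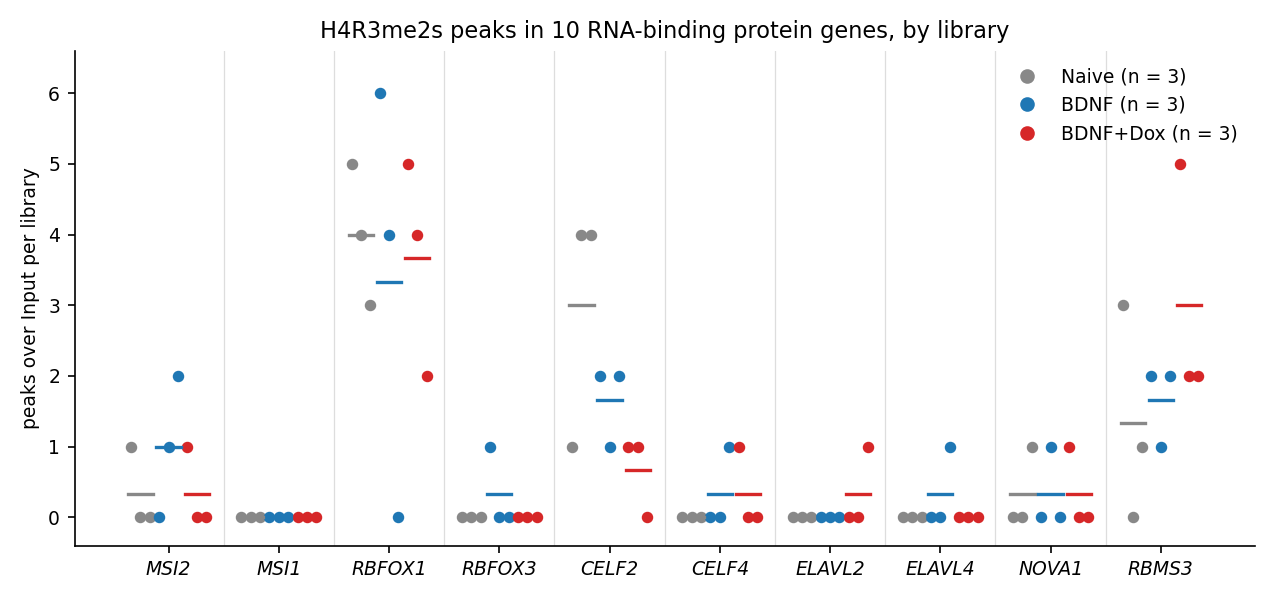
Number of peaks over Input in each gene (horizontal axis) for each of the 9 libraries, 1 point per library in replicate order within a group, with a bar at the mean of each group. RBFOX1, CELF2 and RBMS3 hold most of the 80 peaks, the groups overlap in every gene, and MSI1 has none.

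In the Musashi genes, MSI2 carried few library peaks and many pooled ones. MSI2 (chr17:57255851-57701581) encodes a Musashi protein that binds UAG-containing messages and sustains progenitor cells. Its counts were 1, 0 and 0 in the Naive libraries, 0, 1 and 2 in BDNF, and 1, 0 and 0 in BDNF+Dox. The groups overlapped, and BDNF had the highest sum (3 peaks, against 1 and 1). The 5 library peaks came to 11.1 per Mb over the 9 libraries, where the median long gene had 19.0, and 2346 of the 3351 long genes were denser.

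The authors' deposited tables of pooled calls give another picture of MSI2. They list 8 narrow and 10 broad peaks over BDNF, and 5 narrow and 16 broad peaks over Naive. Its 17.8 narrow peaks per Mb over BDNF, the value for which it was chosen, placed MSI2 above 97.9% of long genes. Its 22.2 broad peaks per Mb over BDNF were above 90.1% of long genes, with 332 of them denser. Over Naive it had 11.1 narrow and 35.6 broad peaks per Mb, above 94.3% and 99.0% of long genes. So in the 3 BDNF+Dox libraries called over Input MSI2 had 1 peak in all, while the same reads called over pooled BDNF gave 8. The pooled call set 54723304 BDNF+Dox reads against 52693520 BDNF reads, so it differed from the library calls in depth as well as in control.

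These pooled MSI2 peaks were small. In the authors' deposited table, the folds of the 8 narrow peaks over BDNF ran from 2.32 to 3.06 and 7 of the 8 had q = 1. The one with the smallest q, at chr17:57524427-57524638, had a fold of 3.06 and q = 0.889. The folds of the 5 narrow peaks over Naive ran from 2.35 to 2.78 in the authors' deposited table, each with q = 1. The 8 peaks were spread along the gene from 3.82 to 400 kb after the outermost start, and none was within 2 kb of a start.

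Support from single libraries was found at 1 place in MSI2. The authors' deposited tables list a narrow peak at chr17:57655763-57655939 over BDNF (fold 2.70) and at chr17:57655744-57655982 over Naive (fold 2.74). BDNF+Dox 1 had a peak over Input at chr17:57655806-57655980 (fold 3.24, q = 1), and BDNF+Dox 2 and 3 had none there. The other 7 narrow peaks over BDNF met no peak of a BDNF+Dox library. The library peaks of the other groups lay elsewhere, in Naive 1 at chr17:57408959-57409125, in BDNF 2 at chr17:57528818-57528970, and in BDNF 3 at chr17:57297619-57297778 and chr17:57582590-57582761. The 5 library peaks thus marked 5 different places.

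**Figure D3:**
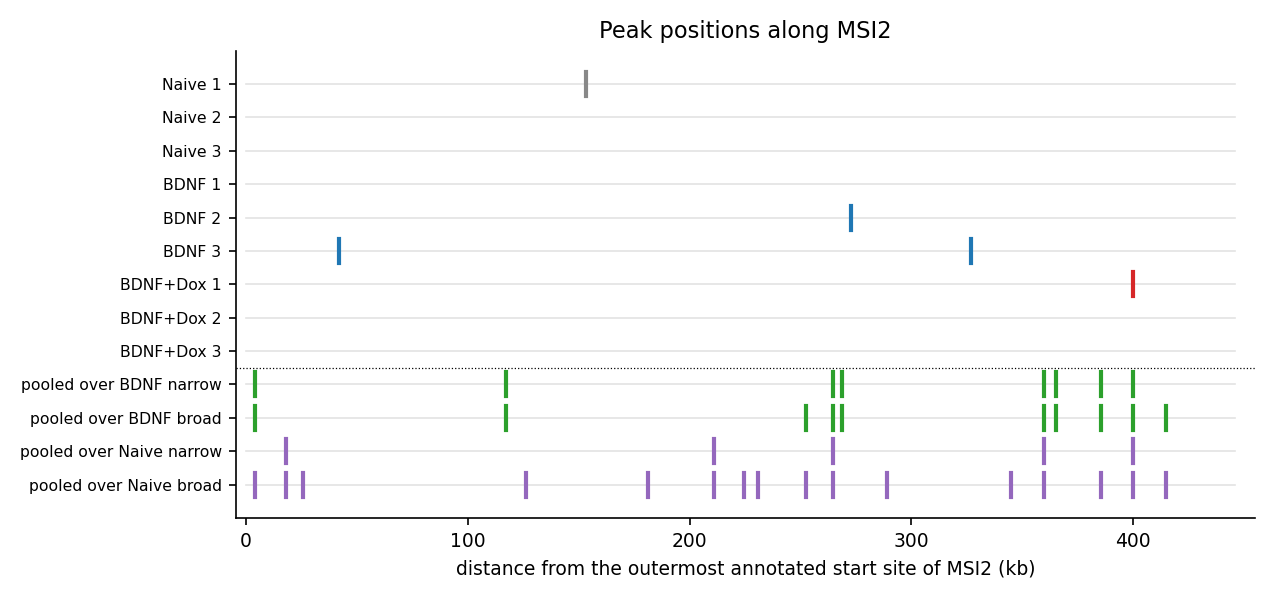
Positions of peaks along MSI2, as distance in kb from its outermost annotated start site, with 1 row for each of the 9 libraries over Input and, under the dotted line, 1 row for each pooled list. Ticks mark peak positions and are not to the width of the peaks. The 5 library peaks stand at 5 places, and only the BDNF+Dox 1 peak near 400 kb lines up with pooled peaks.

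The edge of the MSI2 window mattered for its count. A BDNF+Dox 2 peak at chr17:57703782-57703953 (fold 3.69) began 2.2 kb past the gene's end, just outside the window, and the authors' deposited tables list a narrow (fold 3.47) and a broad peak over Naive from the same base. BDNF+Dox 3 had a peak 5.80 kb past the end and BDNF 1 a peak 6.23 kb before the start. With 10 kb on either side, each BDNF+Dox library would have 1 MSI2 peak and the BDNF libraries 1, 1 and 2, and the groups would still overlap.

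The surroundings of MSI2 were rich in peaks as well. The 5 Mb on either side held 35.6 library peaks per Mb, against 17.1 over the gene windows of chromosome 17 and 20.8 over all gene windows. They held 8.2 narrow peaks per Mb over BDNF and 6.5 over Naive in the authors' deposited tables, against 3.52 and 2.95 over all gene windows. SH-SY5Y is known to carry a gain of distal 17q. Copy number was not measured here, and its part in the MSI2 counts was not tested. Within the gene the pooled density was above that of its surroundings, and the library density was below it.

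MSI1 (chr12:120339662-120369164), the paralogue expressed in neural stem cells, had no peak in any of the 13 lists. Its window of 33.5 kb is the shortest of the 10.

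The splicing regulators of the RBFOX family differed from each other. RBFOX1 (chr16:5239721-7713340), which binds UGCAUG beside exons of neuronal and muscle transcripts, had 5, 4 and 3 peaks in the Naive libraries, 6, 4 and 0 in BDNF, and 5, 4 and 2 in BDNF+Dox. BDNF 3 was the only library without a peak, and the groups overlapped throughout. Its 33 library peaks, the most of the 10 genes, came to 13.3 per Mb, below the long-gene median of 19.0 but above the 7.0 per Mb of the 5 Mb on either side. The authors' deposited tables list 4 narrow peaks of RBFOX1 over BDNF and 2 over Naive, or 1.61 and 0.807 per Mb. Of the long genes with a narrow peak over BDNF, 1695 of 1721 were denser, and over Naive 1472 of 1474 were. The 49.4% and 56.0% of long genes that were less dense are mostly genes with no such peak.

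RBFOX1 nevertheless had the smallest q among the pooled peaks of these genes. In the authors' deposited table over BDNF, the narrow peaks at chr16:5281621-5281806 (fold 3.23, q = 0.473) and chr16:7452430-7452592 (fold 3.27, q = 0.613) ranked first. Over Naive, the authors' deposited table lists chr16:5281619-5281783 (fold 2.77, q = 1) at the first of these places. Neither place held a peak of a single library. Another narrow peak over BDNF, chr16:6151758-6151920 in the authors' deposited table, met a BDNF+Dox 3 peak at chr16:6151715-6151924 (fold 4.04).

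RBFOX3, which encodes the neuronal nuclear antigen NeuN, was nearly empty. Its 576 kb (chr17:79089345-79665571) held 1 peak, in BDNF 1 at chr17:79553574-79553759 (fold 3.49), and 0 in each of the other 8 libraries. At 1.72 peaks per Mb it was denser than only 9.97% of long genes, while the sequence around it held 13.8 per Mb. No pooled list had a peak in RBFOX3. MSI2, on the same chromosome arm, had peaks in all 4 pooled lists. Copy number was measured at neither gene, and its part in this difference was not tested.

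The CELF genes encode regulators of splicing and message decay that bind GU-rich RNA. CELF2 (chr10:10462550-11336675) had 1, 4 and 4 peaks in the Naive libraries, 2, 1 and 2 in BDNF, and 1, 1 and 0 in BDNF+Dox. The means went from 3.0 ± 1.73 through 1.67 ± 0.577 to 0.667 ± 0.577 (SD, n = 3 each), the only such descent among these genes, but Naive 1 lay within the range of the other groups. Without Naive 1, both remaining Naive libraries (4 and 4) exceeded every BDNF library (1 to 2) and every BDNF+Dox library (0 to 1). With Naive 1 left out, 4.54% and 2.45% of the long genes with a library peak did the same, and CELF2 was 1 of the 10 genes. Without BDNF 2, both remaining BDNF libraries of CELF2 (2 and 2) exceeded every BDNF+Dox library, which held for 2.09% of the long genes.

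CELF2 also held the strongest library peaks of the 10 genes, picked out after their values were seen. BDNF 3 had one at chr10:11277540-11277696 (fold 4.73, −log10 p 5.97, q = 0.613) and Naive 2 one at chr10:10658092-10658256 (fold 4.66, −log10 p 5.84, q = 0.585). Neither recurred in another library. The authors' deposited tables list 1 narrow peak of CELF2 over BDNF (chr10:10481996-10482197, fold 2.25, q = 1) and 2 over Naive (chr10:10481969-10482158, fold 2.46, and chr10:10648378-10648603, fold 2.55, both with q = 1). No library peak lay at these places.

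CELF4, which in neurons binds synaptic messages, had 1 peak in BDNF 3 (chr18:37509629-37510010) and 1 in BDNF+Dox 1 (chr18:37437342-37437516), and 0 in the other 7 libraries. No narrow pooled peak fell in CELF4. A broad peak at chr18:37437406-37437918 stands in both of the authors' deposited broad tables, with folds of 2.61 over BDNF and 2.63 over Naive, and overlaps the BDNF+Dox 1 peak.

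The neuronal ELAV genes, which encode the Hu proteins that stabilise AU-rich messages, had 1 library peak each. ELAVL2 had it in BDNF+Dox 3 (chr9:23692090-23692365, fold 4.35), near the gene's far end, and ELAVL4 in BDNF 3 (chr1:50151412-50151568, fold 4.25). The other 8 libraries had 0 in either gene, so neither gives a comparison of groups. For ELAVL2 the authors' deposited table over BDNF lists a narrow peak at chr9:23847531-23847695 (fold 2.21, q = 1) and none over Naive. For ELAVL4 the authors' deposited tables list a narrow peak at chr1:50177277-50177544 over BDNF (fold 2.89, q = 1) and at chr1:50177277-50177493 over Naive (fold 2.55, q = 1). ELAVL4 had 4 broad peaks over Naive and 2 over BDNF in the authors' deposited tables.

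NOVA1, a splicing factor of neurons that was found as an autoantigen in a neurological syndrome, had 1 peak in 1 library of each group. They lay in Naive 3 at chr14:26488134-26488311, in BDNF 2 at chr14:26576566-26576770 and in BDNF+Dox 1 at chr14:26500514-26500802. The closest pair was 12.2 kb apart. No narrow pooled peak fell in NOVA1. The authors' deposited tables list 5 broad peaks over BDNF, 31.5 per Mb, denser than 96.8% of long genes, but only 1 over Naive, and the folds of all 6 lay between 2.25 and 2.49.

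RBMS3, which encodes a single-strand binding protein of AU-rich sequences, came closest to a higher count in BDNF+Dox. Its window (chr3:29281071-30010395 plus the flanks) held 3, 0 and 1 peaks in the Naive libraries, 2, 1 and 2 in BDNF, and 5, 2 and 2 in BDNF+Dox. The means were 1.33 ± 1.53, 1.67 ± 0.577 and 3.0 ± 1.73 (SD, n = 3 each). Every BDNF+Dox library was at or above every BDNF library, with ties at 2, and Naive 1 at 3 exceeded both BDNF+Dox 2 and BDNF+Dox 3. Without Naive 1, every BDNF+Dox library (2 to 5) exceeded the Naive libraries (0 to 1), as in 4.44% of the long genes with a library peak.

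RBMS3 was also the gene with the most pooled peaks beside MSI2. The authors' deposited tables list 7 narrow peaks over BDNF and 8 over Naive, with 18 and 15 broad ones. Its 9.55 and 10.9 narrow peaks per Mb exceeded those of 89.7% and 94.1% of long genes, and those of its own surroundings (4.1 and 3.7 per Mb). Its 24.5 library peaks per Mb were near the 24.7 of its surroundings. The smallest q in the authors' deposited table was 0.664 over BDNF, at chr3:29832933-29833193 (fold 3.23), while each of the 8 over Naive had q = 1, the strongest by fold being chr3:29611413-29611586 (3.24).

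BDNF+Dox libraries supported 1 of the 7 narrow RBMS3 peaks over BDNF, 0 of the 8 over Naive, and 3 broad peaks in either comparison. The narrow peak at chr3:29742667-29742829 in the authors' deposited table over BDNF (fold 3.00) met a BDNF+Dox 1 peak at chr3:29742651-29742950 (fold 3.04). BDNF+Dox 1 and BDNF+Dox 2 had peaks 1458 bp apart, at chr3:29631755-29631975 and chr3:29630129-29630296, over the antisense gene RBMS3-AS2 inside RBMS3. They did not overlap, and BDNF+Dox 3 had none nearby.

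**Figure D4:**
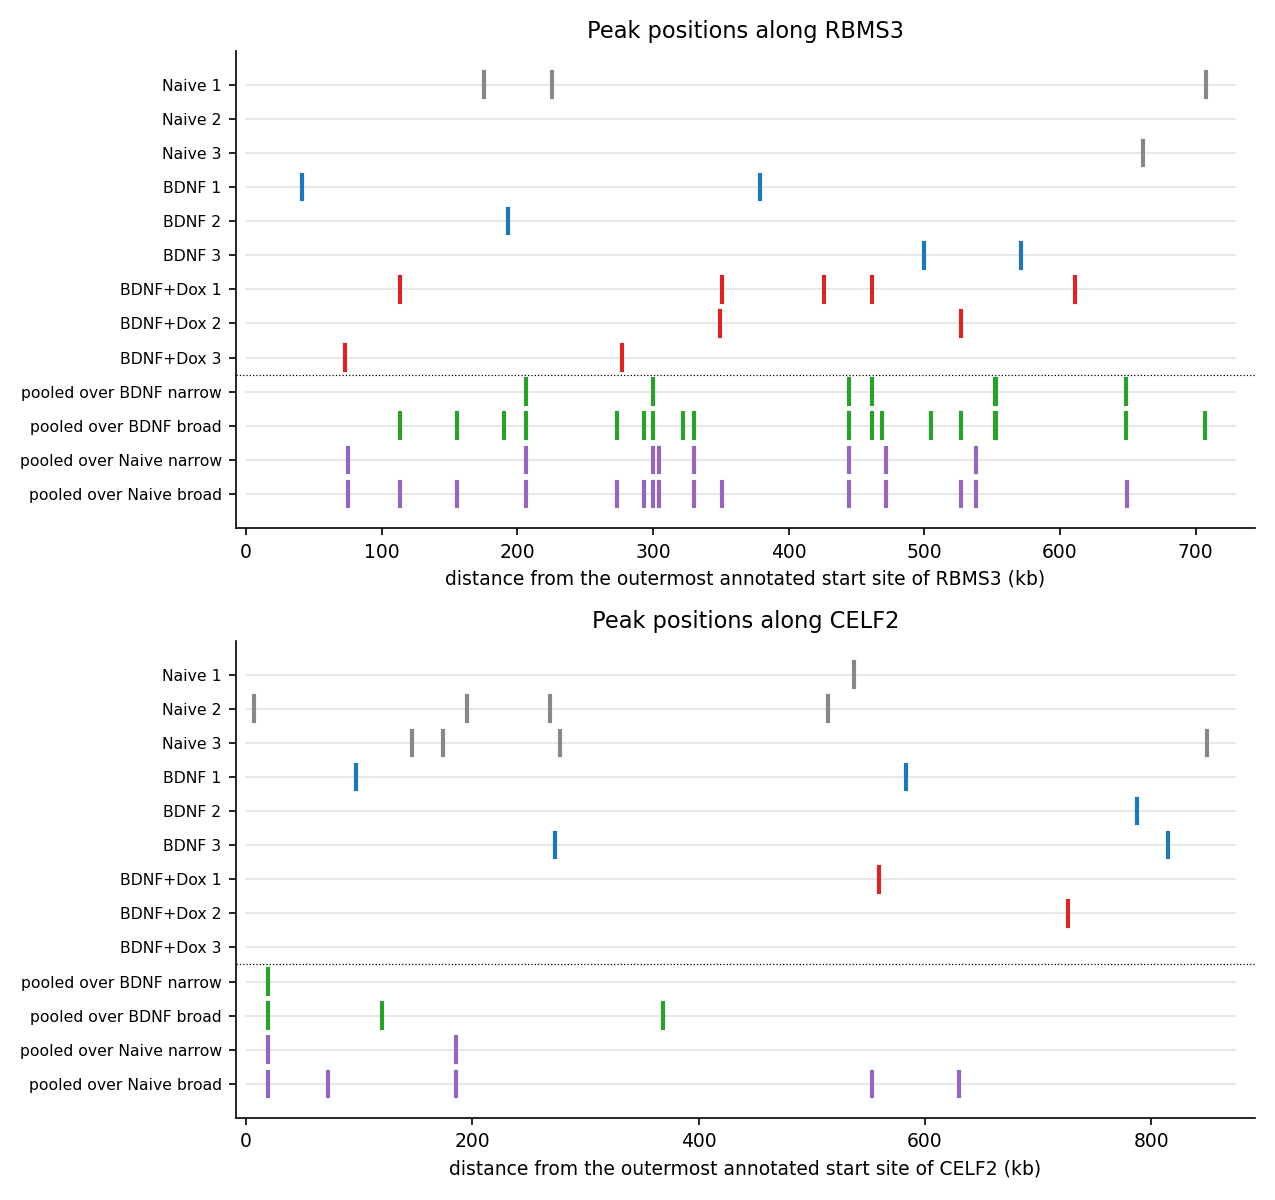
Positions of peaks along RBMS3 (top) and CELF2 (bottom), as distance in kb from the outermost annotated start site, with 1 row per library over Input and, under the dotted line, 1 row per pooled list. Ticks mark positions and are not to the width of the peaks. RBMS3 has 9 BDNF+Dox peaks against 5 in BDNF and 4 in Naive, CELF2 has 2 against 5 and 9, and no library peak of either gene overlaps that of another library.

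No place in the 10 genes was called in more than 1 library. The 80 library peaks formed 80 separate regions when peaks overlapping by 1 bp or more were joined. Over the genome 1558 of 65632 such regions, or 2.37%, held a peak in 2 or more libraries, and 0 of 80 allows a share of up to 3.75% for counting error alone. The share in these genes is therefore not distinguishable from the background. The closest peaks of different libraries were 52 bp apart in RBFOX1, in Naive 1 at chr16:7603145-7603295 and in BDNF 1 at chr16:7603348-7603573. The Naive 1 peak there had the smallest q of all 80 (0.473, fold 4.33), and 70 of the 80 had q = 1.

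The library peaks of these genes were of ordinary strength. Their folds ran from 2.53 to 4.73 and their deposited pileup heights from 4.51 to 8.63. The median fold of these peaks lay between 3.33 and 3.87 in the 9 libraries, beside 3.31 to 3.59 for all peaks of the same libraries. No library peak of the 10 genes reached q = 0.05.

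Summed over the 10 genes, with RBFOX1 as 41.6% of the length, the pooled lists were near the background too. At least 1 narrow peak over BDNF was listed for 6 of the 10 genes in the authors' deposited table, against 51.4% of long genes, and over Naive for 5 of the 10, against 44.0%. Broad peaks were listed in the authors' deposited tables for 8 of the 10 over BDNF and 7 of the 10 over Naive, against 74.2% and 70.6% of long genes. Such shares depend on gene length and are not matched for it, as the median window of the 10 was 388 kb. Broad peaks came to 8.05 per Mb over BDNF and 8.72 over Naive, where all long genes had 10.0 and 8.18. The 22 narrow peaks over BDNF came to 3.69 per Mb and the 18 over Naive to 3.02, where all long genes had 3.91 and 3.15. MSI2 and RBMS3 accounted for 15 of the 22 and 13 of the 18. RBFOX1 lowered these sums, with 1.61 and 0.807 narrow and 3.23 and 4.04 broad peaks per Mb over BDNF and Naive. Without it, 18 and 16 narrow and 40 and 42 broad peaks were left, and the remaining genes together were denser than all long genes in all 4 lists. The nearness to the background is thus a balance of unlike genes and not a trait of each.

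**Figure D5:**
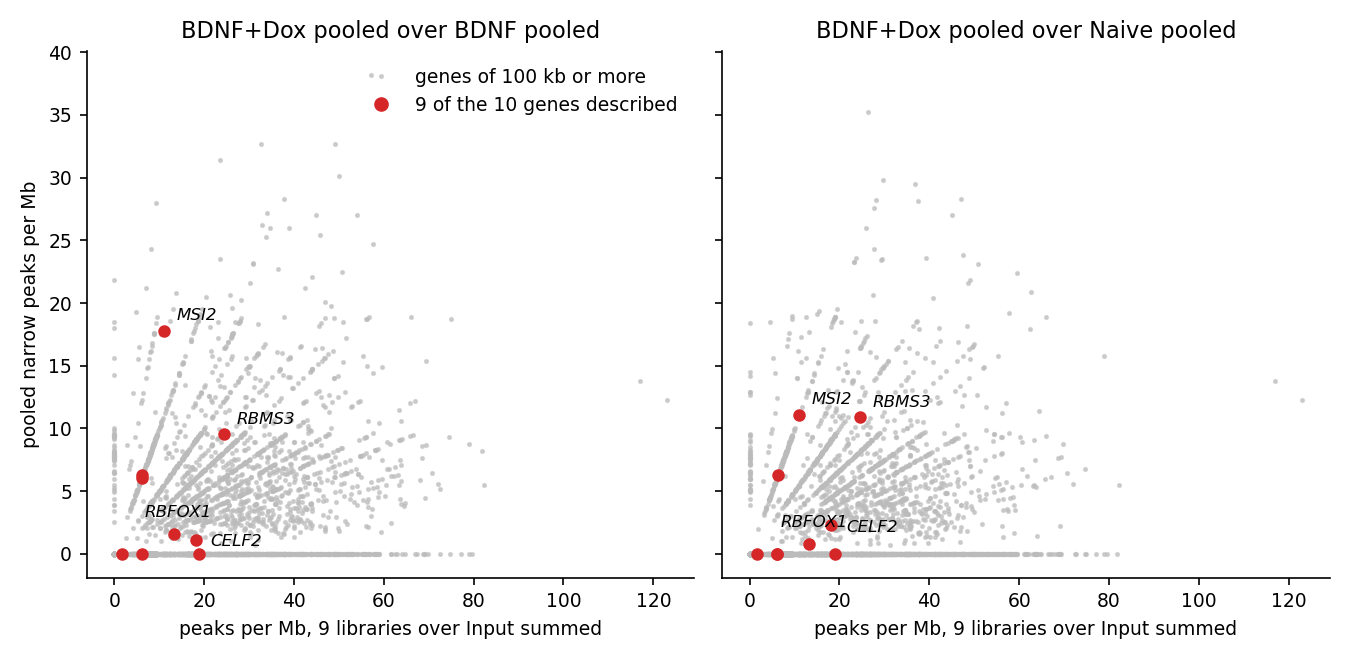
Narrow peaks per Mb in the authors' pooled lists (vertical axis) against peaks per Mb summed over the 9 libraries called over Input (horizontal axis), for genes with a span of 100 kb or more (grey) and the 9 such genes described here (red), with BDNF as control on the left and Naive on the right. MSI2 stands at 17.8 and 11.1 pooled peaks per Mb with 11.1 library peaks per Mb, RBMS3 at 9.55 and 10.9 with 24.5, and the other 7 stand at 6.26 or less in both panels.

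None of the 22 narrow peaks over BDNF and none of the 18 over Naive had q of 0.05 or less in the authors' deposited tables, which allows shares of up to 13.6% and 16.7%. Over the whole lists 0.822% and 1.01% did. In the genes, q was 1 for 17 of 22 and 18 of 18, and over the whole lists for 68.5% and 82.8%. The median fold was 2.77 over BDNF and 2.74 over Naive in these genes, and 2.77 and 2.78 over the whole lists.

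Few pooled peaks of these genes met a BDNF+Dox library peak, although they come from the same reads, there merged to a greater depth. Of the narrow peaks, 3 of 22 over BDNF and 1 of 18 over Naive did so, against 17.9% and 18.3% of the whole lists. Of the broad peaks, 6 of 48 over BDNF and 5 of 52 over Naive did, against 11.8% and 12.2%. Counts this small do not set the genes apart from the whole lists. Each of the narrow pooled peaks lay on a broad one of the same comparison.

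Other RNA-binding protein genes, 68 that were listed by family with earlier results known, were counted in the same way. Of the 68, 37 had a library peak, and their 16.7 library peaks per Mb over the 9 libraries compare with 13.4 in the 10 genes described and 20.6 in all protein-coding gene windows. In the authors' deposited tables they held 21 narrow peaks over BDNF in 15 genes and 21 over Naive in 17 genes, 2.18 per Mb in either list. Of all 19974 protein-coding genes, 7453 had a library peak, 2945 a narrow peak over BDNF and 2621 one over Naive. Their narrow peaks came to 3.52 and 2.93 per Mb. The median window was 99.3 kb in the 68 and 28.2 kb in all genes, so these gene counts are not matched for length. The most narrow pooled peaks among the 68 were in RALYL, with 3 narrow peaks over BDNF and 2 over Naive in the authors' deposited tables. Its library peaks summed to 16 for Naive, 7 for BDNF and 6 for BDNF+Dox. ADARB2, an editing-enzyme relative, RBPMS, QKI and CPEB2 had 3 narrow pooled peaks each in the authors' deposited tables, and KHDRBS2, which has the most library peaks of the 7 genes with 2, had 2. RBPMS was the only one of the 68 in which every BDNF+Dox library exceeded every BDNF library (sums of 3 and 0), and none showed the reverse. Among the long genes with a library peak, these shares were 3.18% and 0.398%. The 68 were not limited to long genes and only 37 of them had a library peak, so these shares are not matched to them. Neither 1 of 68 nor 0 of 68 sets these genes apart.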

How the data were processed

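H4R3me2s ChIP-seq was measured in 9 SH-SY5Y libraries and 1 Input. The tools named in the submitters' processing notes are cutadapt 1.1, Trimmomatic 0.32, Bowtie (version not given in the sources used here) and MACS2 2.2.7.1, with the build GRCh38. MACS2 called every library against Input at p 0.01, and merged BDNF+Dox reads against merged BDNF or Naive reads, per the file headers. For each peak the deposited values are its length, its pileup height (a signal), the fold enrichment (a ratio over local background), the −log10 p-value and the −log10 q-value, all from the authors' MACS2 runs. Although the headers announce that no q-value is computed, the deposited column holds values, used as given. Replicates were not pooled for the library lists, and the merged lists have no spread.

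Gene spans and promoter windows are RefSeq's (GRCh38.p14). Peaks overlapping a span or its 2 kb flanks by 1 bp were counted with Python 3.11.15, pandas 2.3.3 and numpy 2.4.6, and the counting was checked on simulated intervals. Groups came from the labels. The genes, the list of 68 others and the alternatives were chosen with earlier results of these data known, so no test was made. All 10 genes are named, as are for each the pooled narrow peak of smallest q and the 6 listed genes with the most pooled narrow peaks (the last of them picked from 7 tied genes by its library peaks). A comparison of MSI2 with the genes of most similar density is not reported here. Other single peaks were picked out after their values were seen. Peaks carry no read counts per region, so depth per gene is unknown. Limits for shares of 0 use 3 counts. Sequences of peaks and proteins were not used here.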

Additional observations from a re-analysis of the deposited data

How the results depend on the processing

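Counts over the 10 genes rest on a lenient threshold and on 3 libraries a group. At a −log10 p of 3 or more, broad pooled peaks fell to 6 over BDNF and 4 over Naive. MSI2 then kept 5 narrow peaks over BDNF and 3 over Naive. At 5 or more, 1 narrow peak over BDNF was left, with 0 over Naive and 0 in either broad list, and at q of 0.05 or less all 4 lists had 0. Without MSI2, 14 narrow peaks over BDNF were left. Window edges (the span alone, 10 kb, midpoint) moved no pooled count over the 10 genes by over 1.5 times, but with 10 kb the BDNF+Dox sum of MSI2 went from 1 to 3, and RBFOX3 and ELAVL4 had 2 library peaks each in place of 1.

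With equal peak numbers per library, the mean of BDNF minus Naive was 3.33 peaks, against 0.0 as deposited, and that of BDNF+Dox minus BDNF -3.67, against -0.333. The cause was not tested. Leaving out single libraries, the difference of BDNF+Dox minus BDNF ran from -3.0 to 1.5, BDNF minus Naive from -1.0 to 0.5, and BDNF+Dox minus Naive from -3.0 to 1.5. The number of genes whose groups did not overlap ran from 0 to 2 (CELF2 and RBMS3 without Naive 1, CELF2 without BDNF 2). In the directions in which these genes separated, 2.09% to 4.54% of long genes did so, each share for 1 direction alone. The number of genes counts separation in any direction, for which the share of long genes is larger and was not computed. Per 10000 peaks, BDNF+Dox minus BDNF ran from -7.55 to -4.27 and BDNF minus Naive from 3.23 to 6.75, while BDNF+Dox minus Naive, -0.797 over all libraries, ran from -2.24 to 0.485 and so changed sign. Joining peaks up to 500 bp apart, chosen after seeing the data, gave 1 region shared by libraries, in RBFOX1. No paired analysis was possible because no result comes from a test.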
